A study of Mus musculus with 15 samples.

Results

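The synaptic vesicle and release machinery was followed through Drop-seq profiles of the postnatal mouse cerebellum and of SHH-driven medulloblastoma. The list held 37 genes chosen by name and function, with earlier results of these data known, and 36 of the 37 were among the 27803 genes of the count tables. Pclo was not analysed here. The members were read in 9 role groups. These were the SNARE proteins (Snap25, Stx1a, Vamp1, Vamp2), the SNARE recycling proteins (Nsf, Napb), the synapsins, synaptophysin and synaptogyrins (Syn1, Syn2, Syn3, Syp, Syngr1, Syngr3), the synaptotagmins (Syt1, Syt2, Syt4, Syt5, Syt7, Syt11), the SV2 proteins (Sv2a, Sv2b, Sv2c), the complexins with beta-synuclein (Cplx1, Cplx2, Sncb), Rab3 and its effectors (Rab3a, Rab3c, Rims1, Rims2, Rph3a), the priming and active zone proteins (Unc13a, Bsn, Cadps, Cadps2, with Pclo) and the vesicular transmitter transporters (Slc17a6, Slc17a7, Slc32a1).

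A neuron releases transmitter by fusing filled vesicles with its membrane at the active zone. Transporters fill the vesicle, synapsins hold it in reserve, Rab3 and the RIM and Munc13 proteins dock and prime it, and the SNARE proteins pull the membranes together once calcium binds a synaptotagmin. Cerebellar granule neuron progenitors (CGNPs) divide under SHH signalling in the outer granule layer and then leave the cycle, migrate and mature into glutamatergic granule neurons, which assemble this machinery in their parallel fibre terminals. SHH medulloblastoma arises from CGNPs, and vismodegib blocks SMO, the signal transducer of the pathway.

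The animals formed 3 groups of 5. WT samples were cerebella of C57BL/6 mice taken on postnatal day 7. The vehicle and vismodegib samples were tumors of Math1-Cre:SmoM2 (M-Smo) mice, in which Cre under the Math1 (Atoh1) promoter switches on the constitutively active, EYFP-tagged SmoM2 allele in the CGNP lineage. These mice received 3 daily intraperitoneal doses, from day 12 to day 14, of 75 mg per kg vismodegib or of its NMP:PEG vehicle, and the tumors were taken on day 15. Cells of WT mice were captured on a PDMS device without a spike-in, and those of tumors on a glass device with a spike-in of human HEK cells that was removed by alignment. Age, genotype and device therefore cannot be told apart in any comparison of a tumor with WT.

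After quality filtering, 18293 of 21531 barcodes were kept from vehicle tumors, 12429 of 15310 from vismodegib tumors and 7224 of 15000 from WT cerebella. Total counts ran from 2310474 to 17708677 UMIs per animal. A UMI is a molecular tag read near the 3′ end of a transcript, so levels were expressed as CPM (counts scaled to a fixed total of a class's UMIs) and were not scaled by gene length. Cells were clustered without the members and named from markers. From their markers 4 stages of the lineage were set up after the nodes of the study, Node A-like (mitotic), Node B-like (progenitor), Node C-like (newly postmitotic) and Node D-like (differentiating neuron). Each name is a reconstruction, and 4 clusters were named late and less firmly. Among these a Node A-like cluster of 1242 tumor cells was led by replication genes (Rrm2, E2f2, Ccne2) and, like a Node B-like cluster of 2900, had no marker of its stage among its 10 leading genes. A Node C-like cluster of 1735 tumor cells and a Node B-like cluster of 731 WT cells were led by hemoglobin genes and had at first taken an erythrocyte name. An animal entered a class with at least 20 cells. In earlier work on these data the tumor libraries fell into 2 sets, with vehicle animals 1 and 3 and vismodegib animals 1, 2 and 3 in set 1 and the others in set 2. The labels name no such batch, and values within each set are given for the sum, Cplx2, Syt1 and Bsn.

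The summed level of the 36 measured members rose along the lineage in every group. In vehicle tumors the sum was 1874 ± 422 CPM (SD, n = 5) at the first stage, Node A-like, and stayed at 1771 ± 372 CPM in Node B-like cells. It then rose to 3642 ± 538 CPM (Node C-like) and 7399 ± 1308 CPM (Node D-like). The same end points, Node A-like and Node D-like, were 1568 ± 123 and 6035 ± 429 CPM in WT cerebella and 1776 ± 145 and 7487 ± 443 CPM in vismodegib tumors (n = 5 each). The Node D-like sum of every animal lay above every sum of the earlier stages in its group. The ratio of the Node D-like to the Node A-like mean was 3.85 in WT, 3.95 in vehicle and 4.22 in vismodegib animals. The stages were not tested against each other, since the cells were ordered by the expression of other genes of the same cells.

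**Figure D1:**
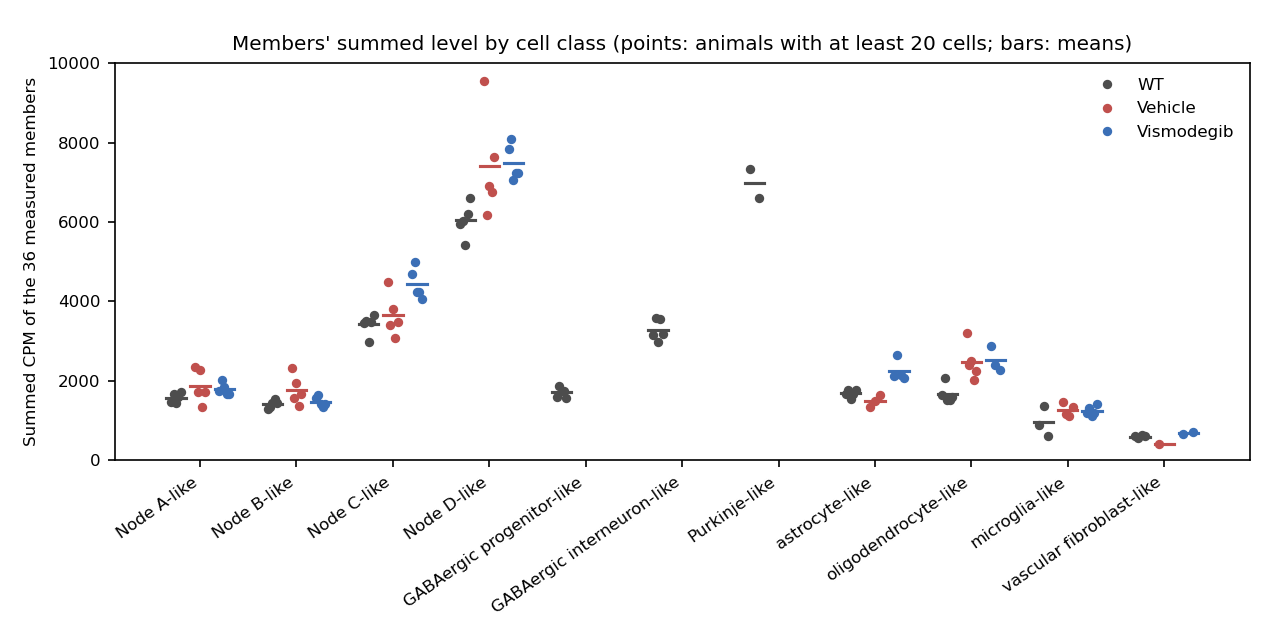
The y axis gives the summed CPM of the 36 measured members and the x axis the cell class. Points are animals with at least 20 cells of the class and short bars are group means. Sums stay between 1280.0 and 2346 CPM in Node A-like and Node B-like cells and reach 5410 to 9548 CPM in Node D-like cells, and the 2 Purkinje-like values (6605 and 7340 CPM) lie in the latter range.

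Most single members had their highest stage in Node D-like cells. Node D-like cells were highest of the 4 stages in all 5 animals for 18 of 36 members in WT, 28 in vehicle and 29 in vismodegib tumors. The share of all genes with this order was not counted. Snap25, the membrane SNARE of the fusion complex, went from 130.2 ± 34.1 CPM (Node A-like) to 403 ± 38.2 CPM (Node D-like) in WT mice and from 143 ± 25.2 to 764 ± 196 CPM in vehicle tumors (n = 5 each). Syt1, the fast calcium sensor, went from 62.7 ± 7.80 to 765 ± 79.0 CPM between the same stages in WT mice (n = 5). Its course was from 8.97 ± 2.45 to 312 ± 105.0 CPM with vehicle and from 12.4 ± 7.70 to 270.1 ± 40.7 CPM with vismodegib (n = 5 each). Syt11, a synaptotagmin that does not bind calcium, ran against this order, and Node C-like cells were its highest stage in all 5 animals of each group. In vismodegib tumors its Node C-like level was 968 ± 163 CPM and its Node D-like level 691 ± 122 CPM (n = 5). Slc17a6, the vesicular glutamate transporter VGLUT2, measured 254 ± 63.9 and 223 ± 54.4 CPM in the Node C-like and Node D-like cells of vehicle animals and 289 ± 47.5 and 247 ± 57.4 CPM in those of vismodegib animals (n = 5 each). Its Node C-like value was the higher in 4 of 5 vehicle and 5 of 5 vismodegib animals. In WT the order was the other way, with 230.3 ± 74.2 CPM at the Node C-like stage and 284 ± 64.6 CPM at the Node D-like stage (n = 5), the latter higher in 4 of 5 animals. Rims2, a RIM protein, had group means between 47.7 and 83.8 CPM at every stage, and in vismodegib tumors its highest class was Node A-like.

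**Figure D2:**
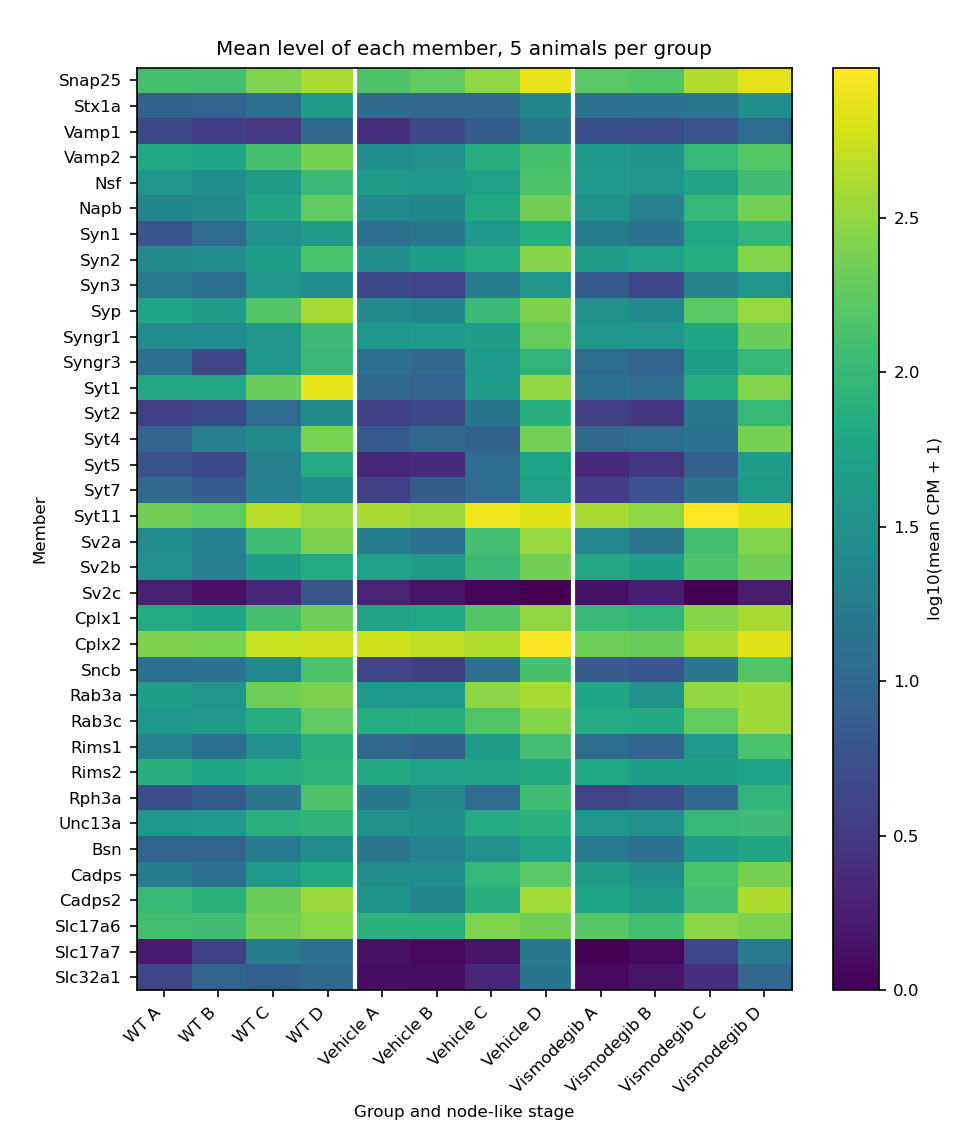
Rows are the 36 measured members and columns the node-like stages A to D of each group. Colour gives log10 of the mean CPM of 5 animals plus 1. Rows brighten towards D for most members, while Syt11 is brightest at C and Cplx2 is already bright at A and B in vehicle tumors.

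The Node D-like cells of tumors came from 2 clusters that carried the machinery to different degrees. The cluster led by Car3 and Sez6 held 656 vehicle and 2246 vismodegib cells and had a summed level of 6468 ± 1346 (vehicle, n = 5) and 6709 ± 709 CPM (vismodegib, n = 5). The cluster led by Calb2 and Meg3 held 151 and 1977 cells, with 10130 ± 1587 (vehicle, n = 4) and 8508 ± 855 CPM (vismodegib, n = 5). Syt4, a synaptotagmin that does not trigger fast release, was at 84.6 ± 44.4 CPM in the former and 478 ± 204 CPM in the latter in vismodegib tumors (n = 5). Rph3a (rabphilin, a Rab3 effector) was at 43.5 ± 11.9 against 159 ± 60.9 CPM. Slc17a6 overlapped between the clusters, with 260 ± 72.1 against 222 ± 57.9 CPM. The clusters were formed on other genes of the same cells and these values are a description.

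Other neurons were present in WT cerebella. Purkinje-like cells, 107 in all and at least 20 in only 2 animals, reached sums of 7340 and 6605 CPM, GABAergic interneuron-like cells 3287 ± 270 CPM and GABAergic progenitor-like cells 1701 ± 129 CPM (n = 5). Purkinje-like cells differed in the members they used. Over all 107 cells they held Syt1 at 1032 CPM, Sncb (beta-synuclein) at 446 CPM and Syt5 at 151 CPM, while the priming factor Cadps2 was at 7.82 CPM there, from 4 UMIs, and at 340.0 ± 57.3 CPM in Node D-like cells (n = 5). Among the 10 WT classes with at least 3 animals, which leaves out Purkinje-like cells, GABAergic interneuron-like cells were highest for Vamp1, Syt2, Syt7, Rab3a, Rab3c and Slc32a1. The 2 Purkinje-like values were higher still for Syt7 (76.1 and 77.7 CPM) and Slc32a1 (300.5 and 293.5 CPM). Syt2 was at 68.3 ± 22.5 CPM in the interneuron-like cells, at 36.1 and 60.4 CPM in the 2 Purkinje-like values and at 26.1 CPM in Node D-like cells. Rab3a was at 269 ± 41.8 CPM in these interneurons, at 247 ± 58.7 CPM in Node D-like cells and at 621 and 406 CPM in the 2 Purkinje-like values, which lay above every value of the other classes named here.

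The transporters divided the classes by transmitter. Slc17a6 gave 309, 267 and 2215 UMIs in Node D-like cells of WT, vehicle and vismodegib animals, against 20 in GABAergic interneuron-like and 2 in Purkinje-like cells. Slc32a1, the vesicular GABA transporter, gave 209 UMIs in GABAergic interneuron-like and 140 in Purkinje-like cells, and 12, 17 and 36 in the Node D-like cells of the same groups, which is 9.71 ± 6.96, 13.5 ± 11.5 and 8.62 ± 8.09 CPM (n = 5 each), with overlap. Slc17a7, the VGLUT1 that mature granule neurons come to use, was barely counted. In WT its largest count, 37 UMIs, was in Node C-like cells. It gave 12, 15 and 119 UMIs in Node D-like cells, which is 12.2 ± 8.17, 14.8 ± 14.5 and 15.9 ± 2.93 CPM (n = 5 each). In Node A-like cells of vismodegib tumors it gave 0 UMIs, which allows up to 0.445 CPM by counting error alone.

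Glia and vascular cells were read beside these levels, since droplets also capture free RNA. Their sums are no measure of free RNA alone, since some members had their highest WT class among them. The summed level was 1676 ± 102 CPM in WT astrocyte-like cells (n = 5), 943 ± 389 CPM in WT microglia-like cells (n = 3) and 589 ± 33.6 CPM in WT vascular fibroblast-like cells (n = 4). The 3 classes did not draw on the same members. In astrocyte-like cells Syt11 alone gave 793 ± 104 CPM, and in microglia-like cells Syngr1, a synaptogyrin, gave 542 ± 311 CPM. These were the highest WT classes of both members. The next were oligodendrocyte-like cells for Syt11 (510.8 CPM) and Node D-like cells for Syngr1 (110.7 CPM). Snap25 was at 6.21 ± 10.8 CPM in WT microglia-like, 34.9 ± 29.3 CPM in vascular fibroblast-like, 46.7 ± 21.5 CPM in astrocyte-like and 84.9 ± 39.9 CPM in oligodendrocyte-like cells. In oligodendrocyte-like cells, whose sum was 1656 ± 230 CPM in WT (n = 5), the Snap25 range of 44.7 to 151 CPM overlapped that of Node A-like cells (96.4 to 166.7 CPM). In WT the sums of Node A-like and Node B-like cells (1568 and 1404 CPM) were of the size found in astrocyte-like cells, at median depths of 3244, 1240.0 and 1655 UMIs per cell. This likeness does not separate a cell's own RNA from free RNA.

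With vismodegib, most members stood higher in the sums over all CGNP-like cells. Of 34 members tested, 27 were called higher and 0 lower (edgeR quasi-likelihood test, adjusted p under 0.05), whereas 8.55% of the 12475 genes tested were called higher and 4.69% lower. Those not called included Cplx2 and Syt11, the most abundant members in vehicle tumors. The median log2 difference of the members was 1.10 and that of all genes 0.00. The sum measured 2910, 2090, 2676, 2047 and 2036 CPM in vehicle animals 1 to 5 and 3324, 3637, 3230, 4254 and 4404 CPM in vismodegib animals 1 to 5. The groups did not overlap. Within set 1 the sum ran from 2676 to 2910 CPM with vehicle and from 3230 to 3637 CPM with vismodegib, and within set 2 from 2036 to 2090 and from 4254 to 4404 CPM. All 27 called members had a higher vismodegib mean in both sets, and Syt7 and Unc13a were the called members whose groups overlapped. The call used these same values, so neither statement is separate support for it. The shares over all called genes were not counted. In sums over CGNP-like cells of all stages, more cells of a stage and more RNA per cell cannot be told apart.

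Among the SNARE proteins, 3 of 4 were called higher. Snap25 measured 246, 167, 233, 226 and 199.6 CPM in vehicle and 352, 325, 343, 419.7 and 392 CPM in vismodegib tumors, a log2 difference of 0.78 ± 0.14 (SE). Vamp2, the vesicle SNARE, measured 33.6, 42.9, 51.2, 46.1 and 32.1 CPM against 69.2, 82.6, 71.4, 90.9 and 93.7 CPM, a log2 difference of 1.00 ± 0.17. Neither overlapped between the groups. Stx1a, the syntaxin partner of Snap25, was called at a lower level (9.89 and 17.6 CPM on average) and lost the call without vehicle animal 5 or vismodegib animal 5 (edgeR adjusted p = 0.0540 and 0.0638), and Vamp1 was not called, at 3.77 and 5.84 CPM. Of the proteins that recycle used SNAREs, Napb (beta-SNAP) measured 50.1, 32.4, 35.3, 41.1 and 33.0 CPM against 70.6, 96.4, 73.2, 122.6 and 112.9 CPM and rose by a log2 difference of 1.34 ± 0.19, and the ATPase Nsf, at 45.3 ± 3.03 and 64.3 ± 19.9 CPM (n = 5), did not pass.

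All 6 of the synapsins, synaptophysin and synaptogyrins, proteins of the vesicle surface and membrane, were called higher. Syp, synaptophysin, measured 51.6, 36.01, 77.5, 45.3 and 27.1 CPM in vehicle and 98.8, 167.8, 105.4, 144.9 and 144.8 CPM in vismodegib tumors, a log2 difference of 1.502 ± 0.25. Syn2, a synapsin that tethers the reserve pool, measured 72.7, 48.5, 42.5, 51.1 and 45.1 CPM against 74.3, 82.3, 86.4, 148 and 188 CPM. The lowest vismodegib value of Syn2 stood just above the highest vehicle value. Syngr1 measured 50.4, 42.2, 43.2, 50.9 and 46.0 CPM against 72.9, 80.6, 68.2, 97.6 and 93.9 CPM. Syn1, Syn3 and Syngr3, at means of 6.98 to 19.4 CPM in vehicle tumors, had log2 differences of 1.17, 1.32 and 1.17.

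The synaptotagmins held the largest differences of any role group with more than 3 members, with a median log2 difference of 1.78 over 6 tested. Syt1 measured 28.2, 24.9, 26.3, 33.0 and 16.5 CPM in vehicle and 62.1, 56.8, 61.4, 140.3 and 148.8 CPM in vismodegib tumors, a log2 difference of 1.90 ± 0.31 (edgeR adjusted p = 0.0015). Within set 1 it ran from 26.3 to 28.2 CPM with vehicle and from 56.8 to 62.1 CPM with vismodegib, and within set 2 from 16.5 to 33.0 and from 140.3 to 148.8 CPM. Vismodegib animals 4 and 5, those of set 2, stood highest here, as they did for Syt2, Syt4 and Syt5, and these animals had the largest shares of Node D-like cells, 46.1% and 53.04% of CGNP-like cells. Syt4 rose from 16.02 ± 6.44 to 72.1 ± 33.0 CPM (n = 5), a log2 difference of 2.23, and Syt2 and Syt5 by 1.92 and 1.66. Syt7, a slow calcium sensor, was called at 7.88 and 15.3 CPM but lost the call without vehicle animal 2 or 5 or vismodegib animal 4 or 5 (edgeR adjusted p from 0.0805 to 0.113). Syt11, the most abundant synaptotagmin, measured 603, 396, 529, 327 and 397 CPM against 534, 691, 609, 517 and 503 CPM. Its groups overlapped and it was not called.

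Both SV2 proteins that were tested, glycoproteins of the vesicle membrane, were called higher. Sv2b measured 63.5, 50.5, 73.0, 68.6 and 61.7 CPM in vehicle and 119.0, 129.3, 105.9, 103.0 and 128.7 CPM in vismodegib tumors, with no overlap. Sv2a measured 64.9, 34.8, 41.7, 53.5 and 32.1 CPM against 85.6, 90.6, 84.5, 116.8 and 160.9 CPM. Sv2c stayed under 1.5 CPM in every tumor and was not tested.

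The complexins, which clamp and release the SNARE complex, parted. Cplx1 measured 92.7, 76.0, 76.0, 96.2 and 83.9 CPM in vehicle and 203, 184, 145, 259.9 and 255 CPM in vismodegib tumors, a log2 difference of 1.31 ± 0.17 (edgeR adjusted p = 0.000417). Cplx2 measured 754, 483, 633, 291 and 489.8 CPM against 327, 299, 317, 417 and 532 CPM, so that all 5 vismodegib values lay inside the vehicle range, and the log2 difference of -0.47 ± 0.23 did not pass. Sncb had the largest difference of any member above 5 CPM, from 9.23 ± 1.91 to 45.6 ± 22.5 CPM (n = 5), a log2 difference of 2.36 ± 0.32.

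Rab3a, the vesicle GTPase, measured 76.6, 133.2, 91.9, 94.8 and 81.9 CPM in vehicle and 169.8, 172.4, 144.1, 239.1 and 198.9 CPM in vismodegib tumors, a log2 difference of 0.96 ± 0.18. Rab3c measured 88.1, 82.6, 105.3, 98.8 and 93.97 CPM against 147.3, 149.1, 151.3, 205.6 and 183.7 CPM. Both kept the groups apart. Of the effectors, Rims1 was called (log2 difference 1.39), and Rims2 (-0.07) and Rph3a (0.50) were not. The priming factors Cadps and Cadps2 (CAPS proteins) were called higher with log2 differences of 1.24 ± 0.17 and 1.61 ± 0.33. Cadps measured 53.3, 39.0, 63.1, 37.4 and 34.8 CPM in vehicle and 102.6, 125.6, 90.9, 103.1 and 109.9 CPM in vismodegib tumors. Cadps2 measured 56.2, 29.8, 93.6, 57.1 and 20.2 CPM against 125.6, 188.4, 137.7, 130.9 and 192.1 CPM. Unc13a (Munc13-1) measured 47.9, 34.6, 54.1, 28.6 and 27.3 CPM against 64.5, 94.4, 60.5, 51.6 and 53.6 CPM. Its groups overlapped through vehicle animal 3, and the call was lost without vehicle animal 2, 4 or 5 or vismodegib animal 1 or 2 (edgeR adjusted p from 0.0535 to 0.0837). Bsn (bassoon), a scaffold of the active zone, was not called at 21.6 ± 15.5 and 30.5 ± 13.6 CPM (n = 5). Its vehicle values were 45.97 and 28.1 CPM in set 1 and 9.53 to 13.1 CPM in set 2, and its vismodegib values 24.5 to 51.9 CPM in set 1 and 19.4 and 20.7 CPM in set 2.

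Of the transporters, Slc17a6 measured 152, 104, 122, 116 and 79.1 CPM in vehicle and 214, 167, 168, 276 and 187 CPM in vismodegib tumors, a log2 difference of 0.84 ± 0.19, with no overlap. Slc17a7 measured 1.46, 0.703, 0.497, 1.41 and 0.130 CPM against 4.23, 3.44, 3.64, 6.78 and 5.54 CPM, with a log2 difference of 2.71 ± 0.51 that rests on 22 UMIs in all vehicle and 133 in all vismodegib tumors. Slc32a1 measured 0.730, 2.11, 0, 1.61 and 0.454 CPM against 2.35, 1.15, 5.00, 1.78 and 1.29 CPM, and was not tested.

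Promoters are shown for the 2 called members whose promoter held the left part of the RE1 element, TTCAGCACC or its reverse complement GGTGCTGAA, the site that gave its name to REST, a repressor of neuronal genes outside neurons. RefSeq promoters (250 bases before to 50 after the start, build GRCm38.p6) matched 29 of 37 members with 39 promoters. The letters, searched on both strands, were found in 2 of these 39 promoters and in 0.371% of all 32851 promoters. Each sequence is written 5′ to 3′ on the strand of the gene, with the matched letters in capitals. Unc13a is read from the minus strand of chr8:71671708-71672007 and Syn1 from the minus strand of chrX:20920869-20921168.
Unc13a: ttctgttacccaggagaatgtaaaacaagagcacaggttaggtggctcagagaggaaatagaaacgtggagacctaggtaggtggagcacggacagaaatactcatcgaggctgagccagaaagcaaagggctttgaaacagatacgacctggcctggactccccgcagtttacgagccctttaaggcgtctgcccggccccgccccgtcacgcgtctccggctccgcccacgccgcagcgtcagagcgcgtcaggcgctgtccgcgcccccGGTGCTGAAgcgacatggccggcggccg
Syn1: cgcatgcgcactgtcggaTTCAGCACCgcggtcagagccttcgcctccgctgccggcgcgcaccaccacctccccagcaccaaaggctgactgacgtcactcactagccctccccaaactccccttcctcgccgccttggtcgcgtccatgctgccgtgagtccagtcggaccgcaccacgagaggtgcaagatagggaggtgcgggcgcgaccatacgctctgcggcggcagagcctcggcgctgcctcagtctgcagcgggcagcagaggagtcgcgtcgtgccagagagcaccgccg
The match begins 22 bases after the start in Unc13a, on the reverse strand, and 232 bases before it in Syn1. A match is a description of these letters and no binding was measured. The GC box GGGCGG, also searched on both strands, was found in 23 of the 39 member promoters and in 35.7% of all promoters.

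The share of Node D-like cells differed between the treatment groups. Node D-like cells made up 3.18% to 10.4% of CGNP-like cells in vehicle tumors and 19.1% to 53.0% in vismodegib tumors. When the stage levels of each tumor were weighted with the mean share of UMIs that each stage held in the vehicle tumors, the sum was 2357 ± 438 CPM with vehicle and 2323 ± 177 CPM with vismodegib (n = 5). The ratio of the means was 0.986 with the shares fixed and 1.60 as measured. The fixed ratio joins stages that went in different directions. In each Node A-like and Node B-like cluster the vismodegib mean of the sum was the lower, with overlap of animals. In each Node C-like cluster it was the higher, again with overlap. The ratio of the Node C-like to the Node B-like sum was 2.06 with vehicle and 3.02 with vismodegib, and these differences were not tested. Cplx2 weighed on the ratio with fixed shares, with 531 ± 183 and 257 ± 49.6 CPM once the shares were fixed. Without it, a choice made after the data were seen, the sums with fixed shares were 1826 ± 263 and 2066 ± 198 CPM, which overlapped, and their ratio was 1.131. The ratio with fixed shares was above 1 for 27 of 36 members, with a median of 1.099. This count takes in members of few CPM, such as Slc17a7 and Vamp1, and the share over all genes was not counted. The same weighting left Snap25 at a ratio of 1.06, Syt1 at 1.19 and Syt4 at 1.20, from 1.71, 3.64 and 4.50 as measured. Cplx1 went from a ratio of 2.47 to 1.61, Cadps2 from 3.02 to 1.52 and Cplx2 from 0.713 to 0.484. With cells placed by marker score in place of clusters, the ratio of the sums was 1.03 with the shares fixed and 1.57 as measured.

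**Figure D3:**
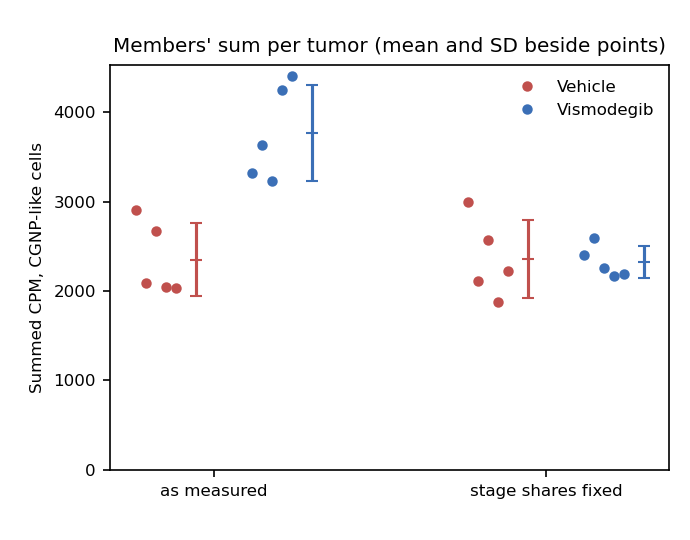
Each point is a tumor and the y axis is the summed CPM of the members over CGNP-like cells, starting at 0. The bar beside the points gives the mean and SD of 5 tumors. The groups separate as measured (2036 to 2910 against 3230 to 4404 CPM) and overlap once the stage shares are fixed (1872 to 2998 against 2170 to 2592 CPM).

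Within a stage few members were called. In Node A-like cells 3 of 27 tested members were called, beside 2.14% of all genes. The counts were 2 of 27 for Node B-like cells, beside 3.02%, and 1 of 28 for Node C-like cells, beside 0.485%. In Node D-like cells 0 of 31 members were called by edgeR, beside 0% of 6286 genes, with 2 members at an unadjusted p under 0.05 and 0 called by DESeq2. With the library set as a covariate 4 were called in Node B-like and 2 in Node C-like cells, and with classes by marker score 1 in Node B-like and 1 in Node D-like cells. Of the 27 members called in CGNP-like cells, 25 were called in no stage, and the remaining members were Cplx1 and Slc17a6. Calls were fewer within stages for all genes as well. In CGNP-like cells 1066 genes were called higher and 585 lower, and in stages A to D 213, 304, 42 and 0 in either direction. The share of all called genes that were called in no stage was not counted. The clusters that make up a stage were also mixed differently in the groups. The Node A-like cluster led by replication genes gave 15.7% of that stage's vehicle cells and 37.2% of its vismodegib cells. A Hes1-led cluster gave 47.5% and 26.1% of Node B-like cells, and a cluster led by Pdzrn3 and Chrna3 gave 47.8% and 24.3% of Node C-like cells. The cluster led by Calb2 and Meg3, with the higher summed level of the 2 Node D-like clusters, gave 18.7% and 46.8% of that stage's cells. The part of this mix in the stage values was not tested beyond the single-cluster values given with each gene. In Node D-like cells the log2 difference was -0.08 ± 0.17 for Snap25, -0.16 ± 0.20 for Syt1 and 0.38 ± 0.22 for Syp. In Node C-like cells it was 0.51 ± 0.14, 0.75 ± 0.21 and 0.66 ± 0.23, not called (edgeR adjusted p = 0.158, 0.187 and 0.321). Cadps, Cadps2, Napb, Rab3c, Sv2b, Syn1, Unc13a and Vamp2 were also uncalled there but higher at an unadjusted edgeR p under 0.05, as were these members. The share of all genes at that limit was not counted.

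Cplx2 was called lower with vismodegib in Node A-like and Node B-like cells. In Node A-like cells it measured 780.1, 568, 763, 264 and 547 CPM in vehicle and 208, 209, 189.7, 157 and 303 CPM in vismodegib tumors, and WT cerebella had 247 ± 20.7 CPM (n = 5). Only vehicle animal 4 lay within the vismodegib range, and the log2 difference was -1.45 ± 0.24 (edgeR adjusted p = 0.00328). In Node B-like cells it measured 692, 471, 571, 277 and 463 CPM against 188, 191, 173, 157 and 298 CPM, a log2 difference of -1.27 ± 0.22 (edgeR adjusted p = 0.00458). Within set 1 the Node A-like values ran from 763 to 780.1 CPM with vehicle and from 189.7 to 209 CPM with vismodegib. Within set 2 they ran from 264 to 568 and from 157 to 303 CPM and overlapped. Within single clusters the vismodegib mean of Cplx2 was the lower in all 6 Node A-like and Node B-like clusters, between 181 and 255 CPM against 419 to 670 CPM, and the animals overlapped in 5 of the 6. In Node D-like cells the groups met again, at 918 ± 460 and 708 ± 86.9 CPM (n = 5), with vehicle animal 1 at 1715 CPM. Outside the lineage Cplx2 ran from 68.55 to 260.4 CPM with vehicle (n = 4) and from 14.68 to 54.29 CPM with vismodegib (n = 5) in microglia-like cells, without overlap. Its means were 163.1 and 136.6 CPM in astrocyte-like and 91.76 and 62.44 CPM in oligodendrocyte-like cells, each with overlap. The part of free RNA in the Cplx2 difference was not tested.

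Rph3a, far less abundant, had a lower vismodegib mean in Node A-like and Node B-like cells and was called only in the latter. In Node A-like cells it ran from 3.99 to 26.2 CPM with vehicle and from 0 to 10.2 CPM with vismodegib. The log2 difference there was -1.76 ± 0.57 (edgeR adjusted p = 0.160). In Node B-like cells it measured 34.2, 22.0, 19.2, 15.9 and 30.3 CPM in vehicle and 1.41, 0, 6.80, 5.70 and 7.04 CPM in vismodegib tumors, with no overlap and a log2 difference of -2.49 ± 0.47 (edgeR adjusted p = 0.00771). The vismodegib values rest on 21 UMIs. With cells placed by marker score the adjusted p was 0.151. In each of the 3 Node B-like clusters the groups stayed apart, at 15.8 to 33.4 CPM against 3.06 to 6.24 CPM on average. In WT Node B-like cells it measured 6.03 ± 4.95 CPM, and in Node D-like cells of the 3 groups between 92.1 and 139.7 CPM on average. Outside the lineage, oligodendrocyte-like cells held 32.13 to 96.04 CPM with vehicle (n = 5) and 3.594 to 31.43 CPM with vismodegib (n = 3), without overlap. In astrocyte-like cells the vismodegib mean was the higher (2.867 and 8.568 CPM), with overlap. The part of free RNA in the Rph3a difference was not tested.

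Cplx1 was called higher in Node A-like and Node C-like cells and Slc17a6 in Node A-like cells. Cplx1 in Node A-like cells measured 55.7, 53.3, 60.6, 45.6 and 59.8 CPM in vehicle and 119.8, 103.8, 77.8, 109.3 and 94.9 CPM in vismodegib tumors, a log2 difference of 0.87 ± 0.15 (edgeR adjusted p = 0.00415). In Node C-like cells it measured 145, 158, 123, 166 and 177 CPM against 301, 265, 224, 285 and 292 CPM, a log2 difference of 0.84 ± 0.14 (edgeR adjusted p = 0.0128). The groups did not overlap at either stage. Outside the lineage Cplx1 went from 13.5 ± 5.01 (n = 3) to 56.8 ± 16.8 CPM (n = 4) in astrocyte-like cells without overlap, and was at 21.8 ± 16.6 (n = 4) and 23.9 ± 16.7 CPM (n = 5) in microglia-like cells. Slc17a6 in Node A-like cells measured 93.96, 81.0, 94.3, 83.7 and 56.1 CPM against 172.6, 148.5, 148.8, 203.1 and 120.4 CPM, a log2 difference of 0.97 ± 0.18 (edgeR adjusted p = 0.00755), again with no overlap. Its mean was also higher with vismodegib in astrocyte-like (20.3 and 38.7 CPM), microglia-like (17.0 and 28.7 CPM) and oligodendrocyte-like cells (5.50 and 17.4 CPM), each with overlap of animals. The part of free RNA in these stage differences was not tested. Within single clusters the vismodegib mean of Cplx1 was the higher in all 3 Node A-like and all 3 Node C-like clusters, with overlap of animals in 3 of the 6. Slc17a6 differed less in the cluster led by replication genes, at 179 ± 22.5 and 199 ± 32.3 CPM with overlap, than in the other Node A-like clusters, at 53.1 and 107.9 CPM and at 74.6 and 190.5 CPM without overlap, and this contrast was not tested. All 6 stage calls remained without the clusters named late.

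**Figure D4:**
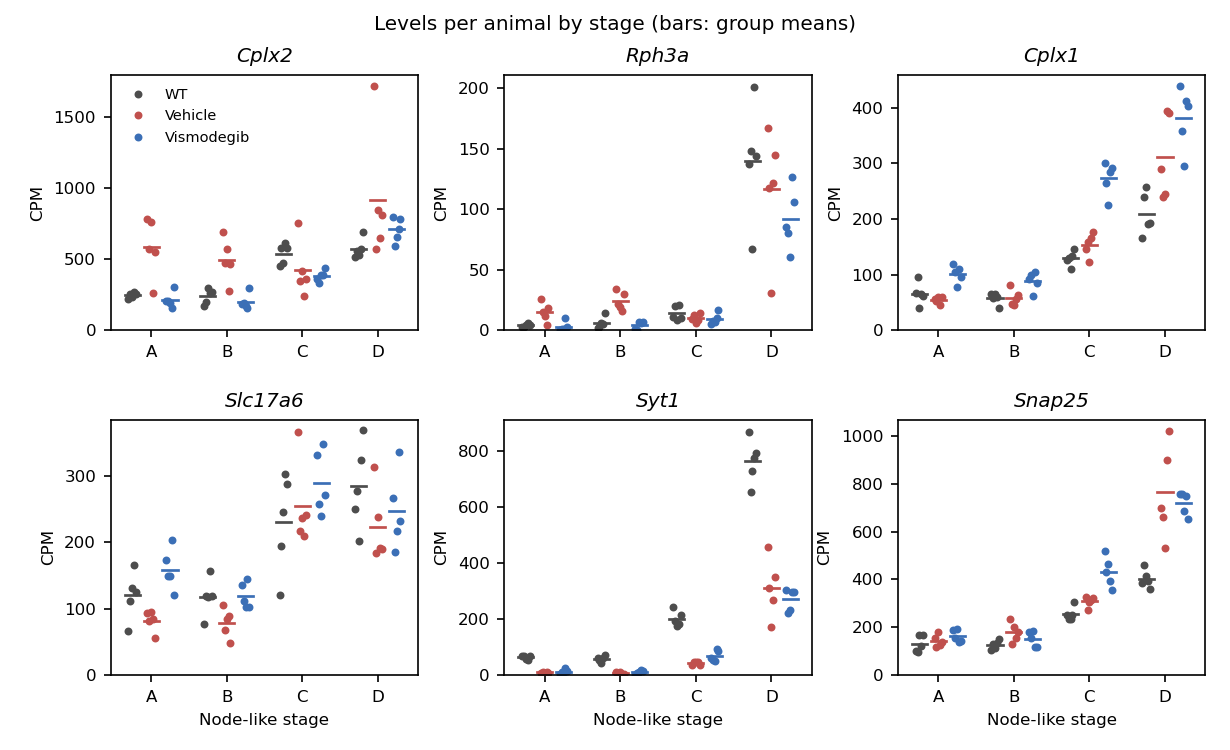
Each panel plots CPM per animal on a linear axis from 0 against node-like stage for 6 members, with short bars at the group means of 5 animals. The means of Cplx2 and Rph3a are higher in vehicle than in vismodegib tumors at A and B, those of Cplx1 and Slc17a6 are higher in vismodegib tumors at A, and the Syt1 values of WT lie above all tumor values at every stage.

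Whether the treatment difference was the same in early and late cells was tested with the Node A-like and B-like cells of a tumor summed as a compartment and the Node C-like and D-like cells as another. Of 34 members tested, 16 had a higher vismodegib effect in the later compartment, beside 8.0% of all genes, and 1 a lower effect, beside 8.90%. The largest were Rph3a (3.295 on the log2 scale), Syt2 (1.79) and Cplx2 (1.53). Cplx2 measured 532 ± 173 and 207 ± 55.0 CPM in the early compartment and 520 ± 229 and 557 ± 95.5 CPM in the later (vehicle and vismodegib, n = 5). Syt4, Syt7, Syngr1, Rab3c, Bsn, Napb, Syngr3, Snap25, Syn1, Syn2, Syp, Nsf and Vamp2 had differences of 0.42 to 1.41. Nsf, Syn1, Syn2, Syngr3, Syp, Syt7 and Vamp2 lost the call without vismodegib animal 5 (edgeR adjusted p from 0.0716 to 0.271), and in each case without at least 1 other animal and under DESeq2. Slc17a6 was the member with the lower effect (-0.71), at 80.5 ± 19.0 and 141 ± 27.6 CPM early and 249 ± 62.0 and 268 ± 52.2 CPM late. Node D-like cells gave 12.5% to 29.8% of the cells of the later compartment in vehicle and 36.7% to 74.3% in vismodegib tumors, and the part of this shift in the result was not tested.

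In all tumor cells together, stroma included, 25 of 34 members were called higher, beside 9.23% of all genes. The sum was 2316 ± 412 CPM with vehicle and 3522 ± 426 CPM with vismodegib (n = 5). In astrocyte-like cells, with 3 vehicle and 4 vismodegib tumors, 3 members could be tested and 0 were called by edgeR (1 at an unadjusted p under 0.05), beside 0.915% of all genes. With classes by marker score 3 members were called there, with no filter on low counts 2, and without vismodegib animal 2 there was 1. The summed level there was 1491 ± 150 and 2248 ± 272 CPM without overlap, of which Syt11 gave 637 ± 189 and 1054 ± 283 CPM. Snap25 measured 48.7 ± 5.07 and 64.1 ± 44.1 CPM in these cells. Cplx1 (8.60 to 18.6 against 34.0 to 74.5 CPM), Cadps (13.3 to 26.3 against 44.7 to 69.9 CPM) and Syt4 (0 to 2.66 against 19.97 to 52.1 CPM) did not overlap between these groups. Nor did Unc13a (0 to 10.63 against 11.33 to 29.95 CPM) and Sncb (0 to 8.601 against 9.31 to 34.0 CPM). All were picked out after their values were seen, and the share of all genes without overlap was not counted. Vehicle astrocyte-like cells held 4 UMIs of Unc13a, 1 of Sncb and 2 of Syt4 in all, against 32, 24 and 47 with vismodegib. For these members the lack of overlap rests on few counts and carries little weight. The part of free RNA in these values was not tested. In microglia-like cells the sums were 1266 ± 167 (n = 4) and 1240 ± 120 CPM (n = 5).

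Related genes were read from 6 lists of the wider synapse, over the CGNP-like cells of vehicle and vismodegib tumors, where 8.55% of all genes were called higher and 4.69% lower. Of other active zone proteins 16 of 19 were called higher and 0 lower, with a median log2 difference of 1.07. They included the liprin Ppfia2 (82.4 ± 21.5 to 154 ± 34.1 CPM), the neurexin Nrxn2 (54.0 ± 16.3 to 157 ± 61.3 CPM) and the scaffold Erc1 (77.4 ± 19.0 to 130.1 ± 37.3 CPM). Of other vesicle membrane proteins 4 of 10 rose, Synpr (synaptoporin) among them from 26.5 ± 4.75 to 90.2 ± 28.2 CPM, with Scamp1. Other SNARE and docking proteins gave 7 higher and 1 lower of 21, with Stxbp5l higher, from 33.4 ± 5.62 to 67.3 ± 29.3 CPM, and with Syt13 lower, from 88.4 ± 12.8 to 29.8 ± 13.4 CPM. The endocytosis and coat list gave 8 higher and 1 lower of 22, with Sh3gl2 and Amph higher and the clathrin light chain Cltb lower, from 404 ± 93.4 to 188 ± 57.9 CPM. The vacuolar ATPase, which acidifies the vesicle, gave 5 higher of 15, with Atp6v0b, Atp6v1b2 and Atp6ap1 the most abundant. The postsynaptic density, the other side of the synapse, gave 8 higher and 1 lower of 19, with Dlgap4 and Camk2b higher and Homer2 lower. Within single stages no gene of these lists was called higher. Syt13 and Cltb were called lower in both Node A-like and Node B-like cells and Nlgn1 in Node B-like cells.

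**Figure D5:**
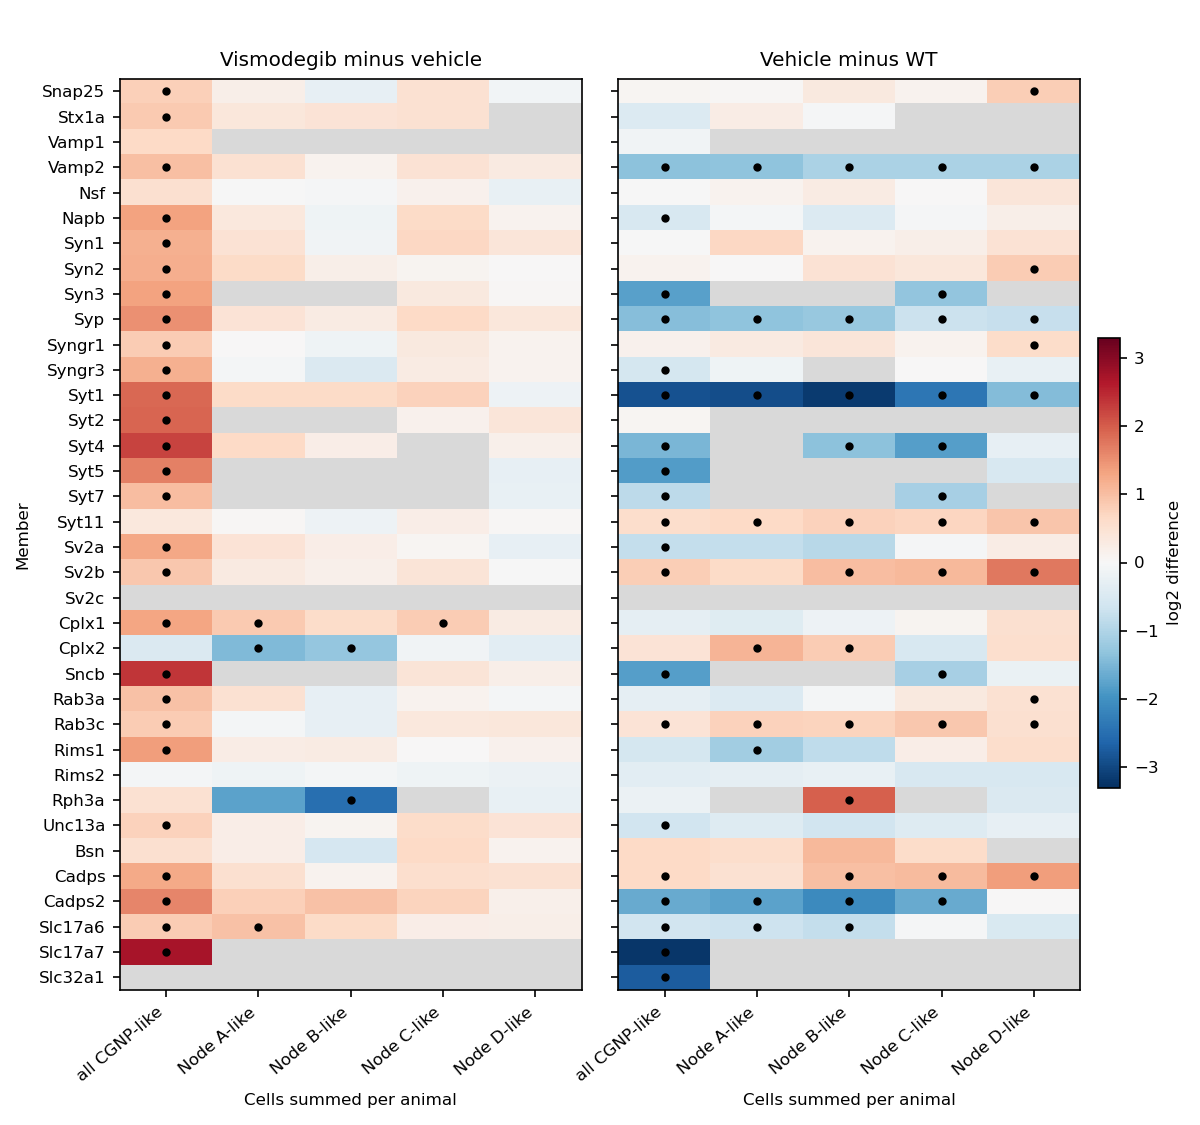
Colour gives the log2 difference of each member, at left vismodegib minus vehicle and at right vehicle minus WT, in all CGNP-like cells and in each node-like stage. Black dots mark an adjusted p under 0.05 and grey fields were not tested. At left 27 dots fill the CGNP-like column and 6 lie in the stages, and at right dots run through all stages for Vamp2, Syp, Syt1, Syt11 and Rab3c, of which Rab3c rests on single animals at Node D.

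Vehicle tumors were set beside WT cerebella by stage. These comparisons use the same vehicle animals as the treatment comparison. In CGNP-like cells 4 of 35 members were called higher in tumors, beside 21.2% of all genes, and 16 lower, beside 23.2%. The median log2 difference of the members was -0.44 and that of all genes 0.05. The sums, 2352 ± 412 CPM in vehicle and 2528 ± 307 CPM in WT animals (n = 5), overlapped. Since vehicle tumors held fewer Node D-like cells than WT cerebella (3.18% to 10.4% against 12.4% to 23.8%), the stages were also read singly. In Node A-like cells 3 of 25 members were higher and 6 lower, beside 16.9% and 18% of genes. The next stage, Node B-like, had 6 and 6 of 26, beside 16.4% and 19.4%. With no filter on low counts the calls in both directions came to 15 in Node A-like and 19 in Node B-like cells, and thinned sums gave 6 in Node B-like cells. The counts were 4 and 8 of 28 for Node C-like cells, beside 15.0% and 16.5%, and 8 and 3 of 27 for Node D-like cells, beside 13% and 13.7%.

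Syt1 stood out among the members lower in tumors. It measured 187, 203, 133, 176 and 186 CPM in WT and 28.2, 24.9, 26.3, 33.0 and 16.5 CPM in vehicle CGNP-like cells, a log2 difference of -2.88 ± 0.18 (edgeR adjusted p = 3.86e-08). It was called lower at each stage, with log2 differences of -2.93, -3.16, -2.39 and -1.43 from Node A-like through Node D-like. Syt1 was also counted in cells that are not neurons. In astrocyte-like cells it measured 176 ± 46.5 CPM in WT (n = 5) and 18.8 ± 22.0 CPM in vehicle tumors (n = 3), in WT above the 62.7 ± 7.80 CPM of Node A-like cells. In microglia-like cells it was 24.9 ± 10.9 CPM in WT (n = 3) and 5.12 ± 5.93 CPM in vehicle tumors (n = 4), from 4 UMIs in each group. In oligodendrocyte-like cells it was 33.7 ± 41.6 and 12.7 ± 15.3 CPM (n = 5 each), with overlap. The part of free RNA in the Syt1 difference was not tested.

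Vamp2 and Syp were called lower in tumors at all 4 stages as well. Vamp2 measured 92.7, 120.9, 59.8, 116.5 and 107.1 CPM in WT CGNP-like cells, above every vehicle value given earlier, with a log2 difference of -1.36 ± 0.19. Syp measured 113.6, 134.6, 87.3, 119.2 and 132.8 CPM in WT, with a log2 difference of -1.41 ± 0.23. Outside the lineage Vamp2 was at 111.7 ± 31.1 CPM in WT and 41.5 ± 12.5 CPM in vehicle oligodendrocyte-like cells (n = 5 each) without overlap, and at 69.3 ± 18.7 (n = 5) and 59.9 ± 24.8 CPM (n = 3) in astrocyte-like cells with overlap. Syp was at 26.7 ± 9.66 and 7.30 ± 6.74 CPM in the astrocyte-like cells and at 15.95 ± 8.30 and 29.2 ± 18.4 CPM in the oligodendrocyte-like cells. The part of free RNA in these differences was not tested. Cadps2 was called lower in Node A-like (-1.76), Node B-like (-2.11) and Node C-like cells (-1.66), and its log2 difference in Node D-like cells was 0.02 ± 0.22. Slc17a7, Slc32a1, Syt5, Sncb, Syn3 and Syt4 were lower by -3.20, -2.74, -1.84, -1.82, -1.78 and -1.51 in CGNP-like cells. Of these Sncb was called in Node C-like cells (-1.09; lost without vehicle animal 3, 4 or 5 or WT animal 3, 4 or 5), was not called in Node D-like cells (-0.21 ± 0.22) and was not tested in the earlier stages. Syt4 was called in Node B-like cells (-1.34) and not in Node D-like cells (-0.26 ± 0.29). Slc17a7 and Slc32a1 rest on 59 and 63 UMIs in WT and 22 and 33 in vehicle CGNP-like cells. GABAergic interneuron-like and Purkinje-like cells, which held most Slc32a1, were named in WT only. The part of free RNA in these values was not tested.

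Members called higher in tumors were fewer than those called lower in the CGNP-like sums (4 and 16) but not in Node D-like cells (8 and 3). Of the 8, Rab3a, Syngr1 and Rab3c lay close to the threshold (edgeR adjusted p = 0.0491, 0.0491 and 0.0467). Sv2b measured 35.3, 44.9, 28.5, 31.0 and 30.1 CPM in WT CGNP-like cells, below every vehicle value, with a log2 difference of 0.81 ± 0.16 that reached 1.75 ± 0.27 in Node D-like cells. Rab3c measured 58.1, 81.8, 60.7, 63.2 and 58.4 CPM in WT and was called higher in tumors at all stages (log2 difference 0.46 ± 0.14 in CGNP-like cells). The Node D-like call of Rab3c was lost without any of vehicle animals 1, 4 and 5 or any WT animal (edgeR adjusted p from 0.0578 to 0.151), and its Node B-like and CGNP-like calls were lost without the clusters named late (edgeR adjusted p = 0.460 and 0.153). Syt11 was called higher at all stages too, with 305, 324, 229.6, 253 and 313 CPM in WT CGNP-like cells. Outside the lineage Syt11 was at 423 to 640 CPM in WT and 829 to 1784 CPM in vehicle oligodendrocyte-like cells (n = 5 each), and Sv2b at 0 to 5.95 CPM (n = 5) and 18.6 to 26.3 CPM (n = 3) in astrocyte-like cells, both without overlap. Syt11 in astrocyte-like cells, at 793 ± 104 CPM in WT (n = 5) and 637 ± 189 CPM with vehicle (n = 3), overlapped. The part of free RNA in these differences was not tested. In Node D-like cells Snap25 was higher in vehicle tumors than in WT by 0.82 ± 0.18 on the log2 scale, and Cadps by 1.39 ± 0.28. Cplx2 was higher in vehicle tumors than in WT in Node A-like (1.11 ± 0.22) and Node B-like cells (0.84 ± 0.22), and Rph3a in Node B-like cells (1.98 ± 0.42). In microglia-like cells Cplx2 ran from 41.37 to 67.35 CPM in WT (n = 3) and from 68.55 to 260.4 CPM with vehicle (n = 4). Its WT and vehicle means were 139.6 and 163.1 CPM in astrocyte-like and 119.0 and 91.76 CPM in oligodendrocyte-like cells, each with overlap. The part of free RNA in the Cplx2 and Rph3a differences was not tested.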

How the data were processed

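Drop-seq libraries of 15 mice (5 WT, 5 vehicle, 5 vismodegib) were analysed. The deposited values are raw UMI counts per gene and barcode, made by the authors with bcl2fastq 2.18, Drop-seq Tools and STAR (5.4b in the submitters' processing notes) on mm10 extended by the transgene sequences. Which annotation version they used is not stated in the sources read here.

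A barcode was kept from 500 UMIs and from 500 genes upwards, unless its UMIs, genes or mitochondrial share exceeded the animal's median by over 5 SD, which was the only step against doublets. At most 13 barcodes were shared by any pair of tables. Tumor (15 clusters) and WT cells (14 clusters) were clustered separately (scikit-learn 1.9.0, igraph 0.11.9, resolution 0.8) without the members and 6 pathway lists, and named from markers by a rule settled after the clusters had been seen. A sub-cluster of 28 cells stayed unnamed. UMIs were summed per animal and class and tested with edgeR 4.0.16 (TMM, filterByExpr, quasi-likelihood test, Benjamini-Hochberg over all genes tested). The compartment test carried the animal as a block. Floors (3 counts) cover counting error only. In simulated data the tests were checked for known changes.

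The members and lists were chosen with earlier results of these data known. Values in every animal were given for members called in CGNP-like cells with a mean of at least 50 CPM, for the most abundant of each role and for the transporters, and at most 3 called genes of each pathway list were named. Some genes of these lists are not reported here. An exon of Bsn overlaps Gm47303 on the same strand (GENCODE M21). The alternatives were DESeq2 1.42.0, RLE factors, no filter on low counts, animals left out, replicate number, serial number and library set as covariates, an upper limit of 4 SD, at least 1000 UMIs, classes by marker score, thinned sums, the sum without its highest member and, added after the data were seen, late-named clusters left out and the sum with fixed stage shares without Cplx2.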

Additional observations from a re-analysis of the deposited data

Results flagged for a closer look

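A single animal stood apart from the others of its group in 8 of the 162 groups of values examined, and chance alone marks about 1 in 20. In CGNP-like cells these were Syn2 in a vehicle tumor at 72.7 CPM, Syt2 in a vehicle tumor at 15.7 CPM, Rab3c in a WT cerebellum at 81.8 CPM and Rims2 in a vismodegib tumor at 74.3 CPM. Cplx2 had such an animal among the vismodegib tumors in Node B-like cells, at 298 CPM, and among the vehicle tumors in Node D-like cells, at 1715 CPM. The summed level had one in astrocyte-like cells of a vismodegib tumor, at 2652 CPM, and in oligodendrocyte-like cells of a WT cerebellum, at 2054 CPM.

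The vismodegib effect differed between the Node C-like plus D-like and the Node A-like plus B-like compartment, by the test of the difference itself, for 17 of 34 members (16 higher and 1 lower, beside 8.0% and 8.9% of all genes). Of the 17, 7 lost the call without vismodegib animal 5 and under DESeq2 (Nsf, Syn1, Syn2, Syngr3, Syp, Syt7 and Vamp2). The later minus the earlier effect on the log2 scale was 3.295 for Rph3a, 1.79 for Syt2, 1.53 for Cplx2, 1.41 for Syt4, 1.15 for Syt7, 1.02 for Syngr1, 0.91 for Rab3c, 0.79 for Bsn, 0.77 for Napb, 0.74 for Syngr3, 0.68 for Snap25, 0.65 for Syn1, 0.55 for Syn2, 0.53 for Syp, 0.48 for Nsf, 0.42 for Vamp2 and -0.71 for Slc17a6. The share of Node D-like cells in the later compartment differed between the groups, and its part in these values was not tested.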

How the results depend on the processing

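The only reversed value among the members was a difference that was not called, that of Rims2 in CGNP-like cells, which ran from -0.23 to 0.0051 with an animal left out (0.0051 without vismodegib replicate 2). With an animal left out, the members called under vismodegib numbered 24 to 28 in CGNP-like cells, 23 to 26 in all tumor cells and 0 to 1 in astrocyte-like cells. For stages A to D they numbered 3 to 4, 2, 1 and 0, and in the compartment test 11 to 17 (11 without vismodegib replicate 5). Against WT they numbered 16 to 19 in CGNP-like cells and 7 to 13, 12 to 15, 9 to 13 and 9 to 12 for stages A to D. With the library set as a covariate 4 members were called in Node B-like and 2 in Node C-like cells. With classes by marker score it was 1 in Node B-like, 1 in Node D-like and 3 in astrocyte-like cells, and the ratio of Node D-like to Node A-like sums was 3.21 in WT and 4.51 in vismodegib animals. DESeq2 called 2 in Node C-like cells and 10 in the compartment test. With no filter on low counts 2 were called in Node C-like and 2 in astrocyte-like cells, and against WT 15 in Node A-like and 19 in Node B-like cells, where thinned sums gave 6. Without Syt11 the sum was 2803 CPM in vehicle Node C-like cells, and 1901 and 3199 CPM in vehicle and vismodegib CGNP-like cells. The causes of these shifts were not tested.

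The labels do not say whether the replicate numbers pair the animals. Same-numbered vehicle and vismodegib tumors carry neighbouring serial numbers, and the methods of the study call the injected mice littermates. The correlations below cannot decide the question. Correlations of same-numbered deviations ran from -0.14 to 0.40 between vehicle and vismodegib and from -0.19 to 0.02 between WT and vehicle. With the replicate number as a block, 26 members were called in CGNP-like cells under vismodegib and 17 against WT, and 3 in Node B-like cells. Between vehicle and vismodegib, animals 4 and 5 correlated best with their own number and the others did not. Between WT and vehicle no animal did. Stx1a, Syt7 and Unc13a lost their calls in CGNP-like cells under some settings. Depth limits the least abundant members, Sv2c, Slc32a1, Slc17a7 and Vamp1, and the astrocyte-like comparison.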
